A study of Homo sapiens with 3 samples.

Results

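Promoter capture Hi-C (PCHi-C) of cardiomyocytes derived from human embryonic stem cells (hESC-CMs) was examined for 10 genes of cardiac potassium channels and their accessory subunits: KCNQ1, KCNE1, KCNH2, KCNE2, KCNA5, KCNJ2, KCNJ3, KCNJ5, KCND3 and KCNIP2. The genes were chosen by name for their part in cardiac repolarisation, with earlier results of these data known. The rule that tied them to fragments used no measured value. Each gene was tied to the HindIII fragment that holds an annotated start of the gene and that the deposited calls list as a promoter fragment. This gave 1 promoter fragment for each of the 10 genes, out of 19075 promoter fragments in all. A contact is a pair of HindIII fragments, at least 1 of them a promoter fragment, whose CHiCAGO score reached 5 in a replicate. The score weighs the reads that join a pair of fragments against those that random collisions and technical noise would give. The union of the 3 replicates held 95 contacts of the 10 fragments, out of 200587 contacts in all.

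The samples formed a single group, 3 biological replicates of hESC-CMs made from the embryonic stem cell line WA09 (H9) with a commercial differentiation kit, enriched in lactate medium without glucose, and not otherwise treated. All 3 replicates came from the same cell line and there was no second cell type, so no contact could be called particular to cardiomyocytes, and the labels do not say whether the replicates were separate differentiations. The submitters checked purity by flow cytometry and qPCR for MYH7 and TNNT2. The files hold contacts and no expression, so that label could not be checked against marker genes here. The replicates held 112473, 109731 and 110740 contacts. Read depth per replicate was not analysed here, and a fragment pair below a score of 5 is not listed, so a missing contact is a pair below that score and not a measured absence.

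The potassium currents of the cardiac muscle cell end the action potential and hold the resting potential. The delayed rectifiers carry most of the late repolarisation, the transient outward current gives the early notch, and the inward rectifiers set the resting potential and answer vagal signals in the atria. A promoter in PCHi-C is seen through a restriction fragment, which may hold starts of several genes, and distal enhancers can lie far away along the chromosome and meet it by looping of the chromatin.

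Among the partners of these promoters, 3 short fragments called in all 3 replicates are shown on the plus strand of GRCh37. Each lies among nearby fragments that were also called, so its short length does not fix the position of the contact. The capitals mark what is left of the HindIII site at each fragment's start and, where the whole fragment is shown, at its end. Of the fragments of KCNJ2 and KCNJ5, which are each 307 bp long, the first 300 bases are given. The KCNJ2 partner lies at chr17:68549558-68549857, the KCNJ5 partner at chr11:128027799-128028098, and the KCNIP2 partner at chr10:103761642-103761930.
KCNJ2 partner: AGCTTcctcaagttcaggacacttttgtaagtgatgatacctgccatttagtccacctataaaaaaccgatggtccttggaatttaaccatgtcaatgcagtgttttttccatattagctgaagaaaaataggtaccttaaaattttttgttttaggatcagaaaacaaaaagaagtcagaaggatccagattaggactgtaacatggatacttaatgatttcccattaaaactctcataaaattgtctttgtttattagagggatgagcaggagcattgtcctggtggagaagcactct
KCNJ5 partner: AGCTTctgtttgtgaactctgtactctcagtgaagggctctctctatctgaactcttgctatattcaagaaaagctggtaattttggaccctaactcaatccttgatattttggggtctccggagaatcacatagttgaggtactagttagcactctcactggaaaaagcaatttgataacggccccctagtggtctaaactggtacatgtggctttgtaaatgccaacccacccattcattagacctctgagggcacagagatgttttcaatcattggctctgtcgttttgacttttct
KCNIP2 partner: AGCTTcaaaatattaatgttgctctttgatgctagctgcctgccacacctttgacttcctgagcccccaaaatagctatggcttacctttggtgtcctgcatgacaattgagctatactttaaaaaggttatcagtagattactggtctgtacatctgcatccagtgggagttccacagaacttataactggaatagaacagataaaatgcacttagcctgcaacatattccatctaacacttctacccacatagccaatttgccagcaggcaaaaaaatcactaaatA
The GC content of these fragments was 36.2%, 43.0% and 40.1% in the order shown, below that of the promoter fragments of the same genes, which was 60.1% for KCNJ2, 50.9% for KCNJ5 and 53.4% for KCNIP2. This did not hold for every partner. Those of KCNQ1 called in all 3 replicates had 64.2% and 58.6%, above the 56.2% of its promoter fragment.

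RefSeq promoter sequences were found for 9 of the 10 genes, each from 250 bases before to 50 bases after the start, and KCNQ1 was not among them. Of these windows 7 lay whole inside the gene's promoter fragment, that of KCNJ3 lay in it in part, and that of KCNJ2 lay outside it. The KCNJ2 promoter fragment, chr17:68164636-68165350, is only 715 bp long and holds the other of the gene's 2 annotated starts. The GC box GGGCGG, read on both strands, was found in 6 of the 9 windows (KCNH2, KCNJ2, KCNJ3, KCNJ5, KCNA5 and KCNIP2), against 45% of all 35116 windows of that length. The TATA box TATAAA, the GATA motif AGATAA and the E-box CACGTG, also read on both strands, are present in 11.5%, 10.3% and 7.26% of all windows and had no match in the 9. The number of CpG pairs in a window ranged from 1 for KCNE2 to 53 for KCND3, with a median of 14 over all windows. The 250 bases before the start of KCNJ5 (25 CpG in its window) and of KCNE2 are shown in the gene's direction to set a GC-rich start beside a CpG-poor one, both of them on the plus strand and inside a promoter fragment. They lie at chr11:128891106-128891355 and chr21:34363756-34364005 of GRCh38.p14, which is chr11:128761001-128761250 and chr21:35736055-35736304 of GRCh37, and the capitals mark the GC box as read on the opposite strand.
KCNJ5 promoter: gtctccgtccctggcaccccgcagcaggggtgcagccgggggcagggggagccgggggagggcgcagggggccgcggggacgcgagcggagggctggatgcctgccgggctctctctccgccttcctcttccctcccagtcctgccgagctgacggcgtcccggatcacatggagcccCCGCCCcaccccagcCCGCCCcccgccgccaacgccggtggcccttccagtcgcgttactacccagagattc
KCNE2 promoter: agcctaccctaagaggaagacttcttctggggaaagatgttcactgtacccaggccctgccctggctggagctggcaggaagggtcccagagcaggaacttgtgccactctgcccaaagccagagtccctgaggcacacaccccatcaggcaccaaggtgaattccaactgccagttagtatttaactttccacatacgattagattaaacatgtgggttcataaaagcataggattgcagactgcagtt

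Across the 10 genes, 25 of the 95 contacts were called in all 3 replicates (26.3%, 95% Wilson interval 18.5 to 36.0), against 24% of all contacts. Calls in just 2 replicates made up 19 of the rest, and calls in a single replicate 51. At least 1 contact in all 3 replicates was found for 7 of the 10 genes, against 51.9% of all promoter fragments, and the exceptions were KCNE1, KCND3 and KCNA5. When the channel gene had to be the first listed fragment of the pair, the number was 6, against 45.6% of all promoter fragments. The replicates held 62, 53 and 49 contacts of these genes (mean 54.7 ± 6.66 SD, n = 3). The number of contacts per gene in the union ran from 1 to 20 with a median of 7, beside a median of 6 (quartiles 3 and 14) over all promoter fragments.

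The calls of each replicate that recurred in all 3 made up 40.3%, 47.2% and 51.0% for the channel genes, and 42.9%, 43.9% and 43.5% for all other contacts. The mean difference was 2.73 percentage points, with the channel genes higher in 2 of 3 replicates, and without replicate 2 it was -0.96. The recurring contacts are the same 25 in each replicate, so the shares differ only through the number of calls, are not independent measurements and get no test here. Median scores of the channel genes' calls were 6.20, 6.43 and 5.98, lower than the 6.63, 6.64 and 6.65 of the other contacts in 3 of 3 replicates (mean difference -0.44 ± 0.23 SD; exact sign-flip permutation test, two-sided, p = 0.25). That p is the smallest that 3 replicates allow, so the test could not pass 0.05. A mean score of 10 or more was reached by 6 of the 95 contacts (6.32%), against 11.5% of all contacts.

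**Figure D1:**
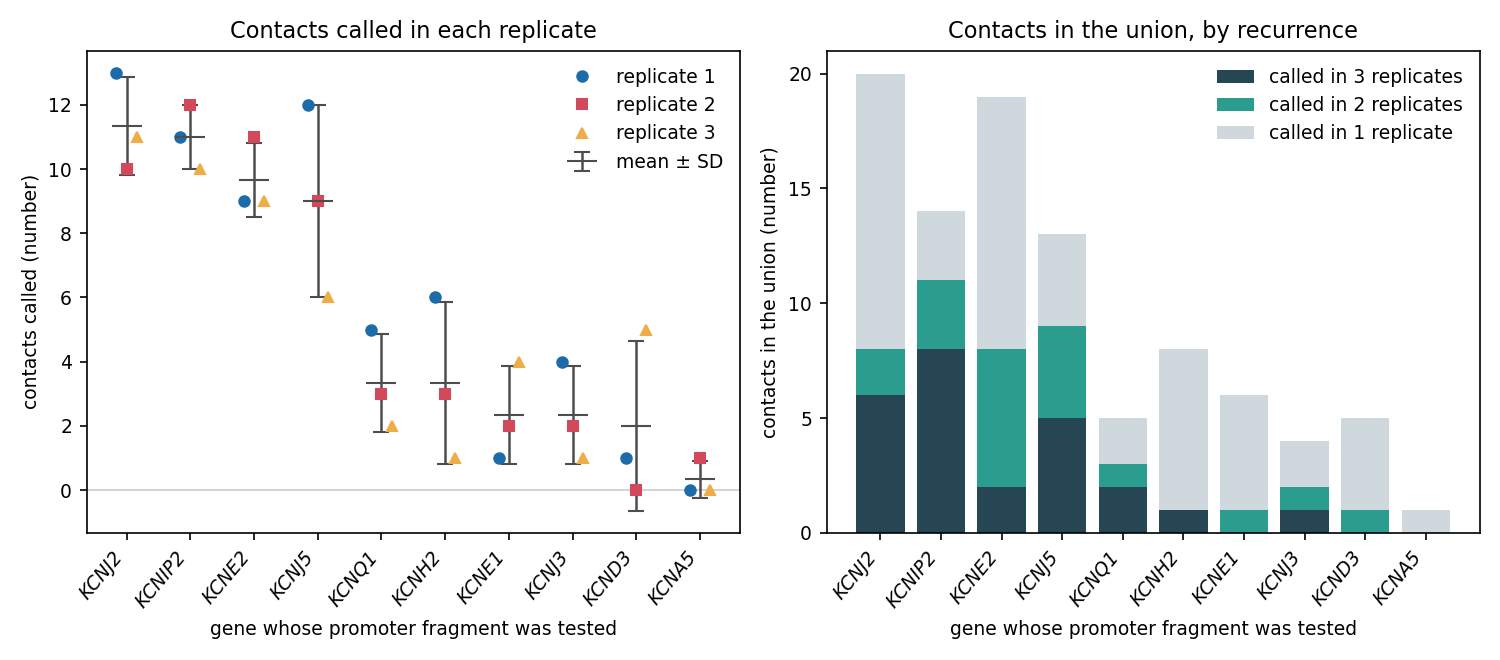
Left, the number of contacts called in each hESC-CM replicate (points) for each of the 10 potassium channel genes, with the mean and SD of the 3 replicates (bars). Right, the contacts in the union of the replicates by how many replicates called them. KCNJ2, KCNIP2, KCNE2 and KCNJ5 lay above the other 6 genes in every replicate, and KCNIP2 had the most contacts in all 3 replicates, 8 of 14.

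In the single replicates the genes fell into 4 with many contacts and 6 with few. KCNJ2 had 13, 10 and 11 contacts in the 3 replicates, KCNIP2 had 11, 12 and 10, KCNE2 had 9, 11 and 9, and KCNJ5 had 12, 9 and 6. The other 6 genes had between 0 and 6 contacts in any replicate. On the merged replicates this split did not hold: KCND3 had 10 contacts, as many as KCNJ2, and KCNE2 had 9. In the order of the mean number, KCNJ5 (9 ± 3) and KCNQ1 (3.33 ± 1.53) were the only neighbours whose replicates did not overlap. Their difference was 5.67 ± 1.53 (SD, n = 3), with the same sign in 3 of 3 replicates. KCNH2 tied with KCNQ1 at a mean of 3.33. The 6 contacts of KCNH2 in replicate 1 equalled the 6 of KCNJ5 in replicate 3, so those 2 genes were not apart. Every other pair of neighbours in the order overlapped in its replicates. For 6 genes the size of the union turned on 1 replicate: without replicate 1 KCNH2 went from 8 contacts to 3, KCNQ1 from 5 to 3 and KCNJ3 from 4 to 2, without replicate 3 KCND3 went from 5 to 1 and KCNE1 from 6 to 3, and without replicate 2 KCNA5 had 0.

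The contacts of the channel genes spanned less than those of the series as a whole in the median, and about as much where all 3 replicates had called them. The median distance between fragment midpoints was 544 kb (quartiles 335 and 731 kb), and it was 385 kb for the 25 contacts in all 3 replicates, which ranged from 159 to 861 kb. Over all contacts of the series the corresponding medians were 716 and 395 kb. Only 1 of the 95 contacts spanned 100 kb or less (1.05%), against 3.83% of all contacts, while 76 (80%) spanned at most 1 Mb, against 55.7%. None of the 95 partners lay over the channel gene itself. A single partner lay over a gene that starts in the promoter fragment, RCAN1 in the case of KCNE1, which is 1.05% of the contacts against 6.86% of all contacts. Contacts with another promoter fragment numbered 11 (11.6%, against 9.59% of all contacts), of which 4 were called in all 3 replicates, and contacts with another chromosome numbered 3 (3.16%, against 3.87%), none of them in all 3. No 2 of the 10 genes contacted each other directly.

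**Figure D2:**
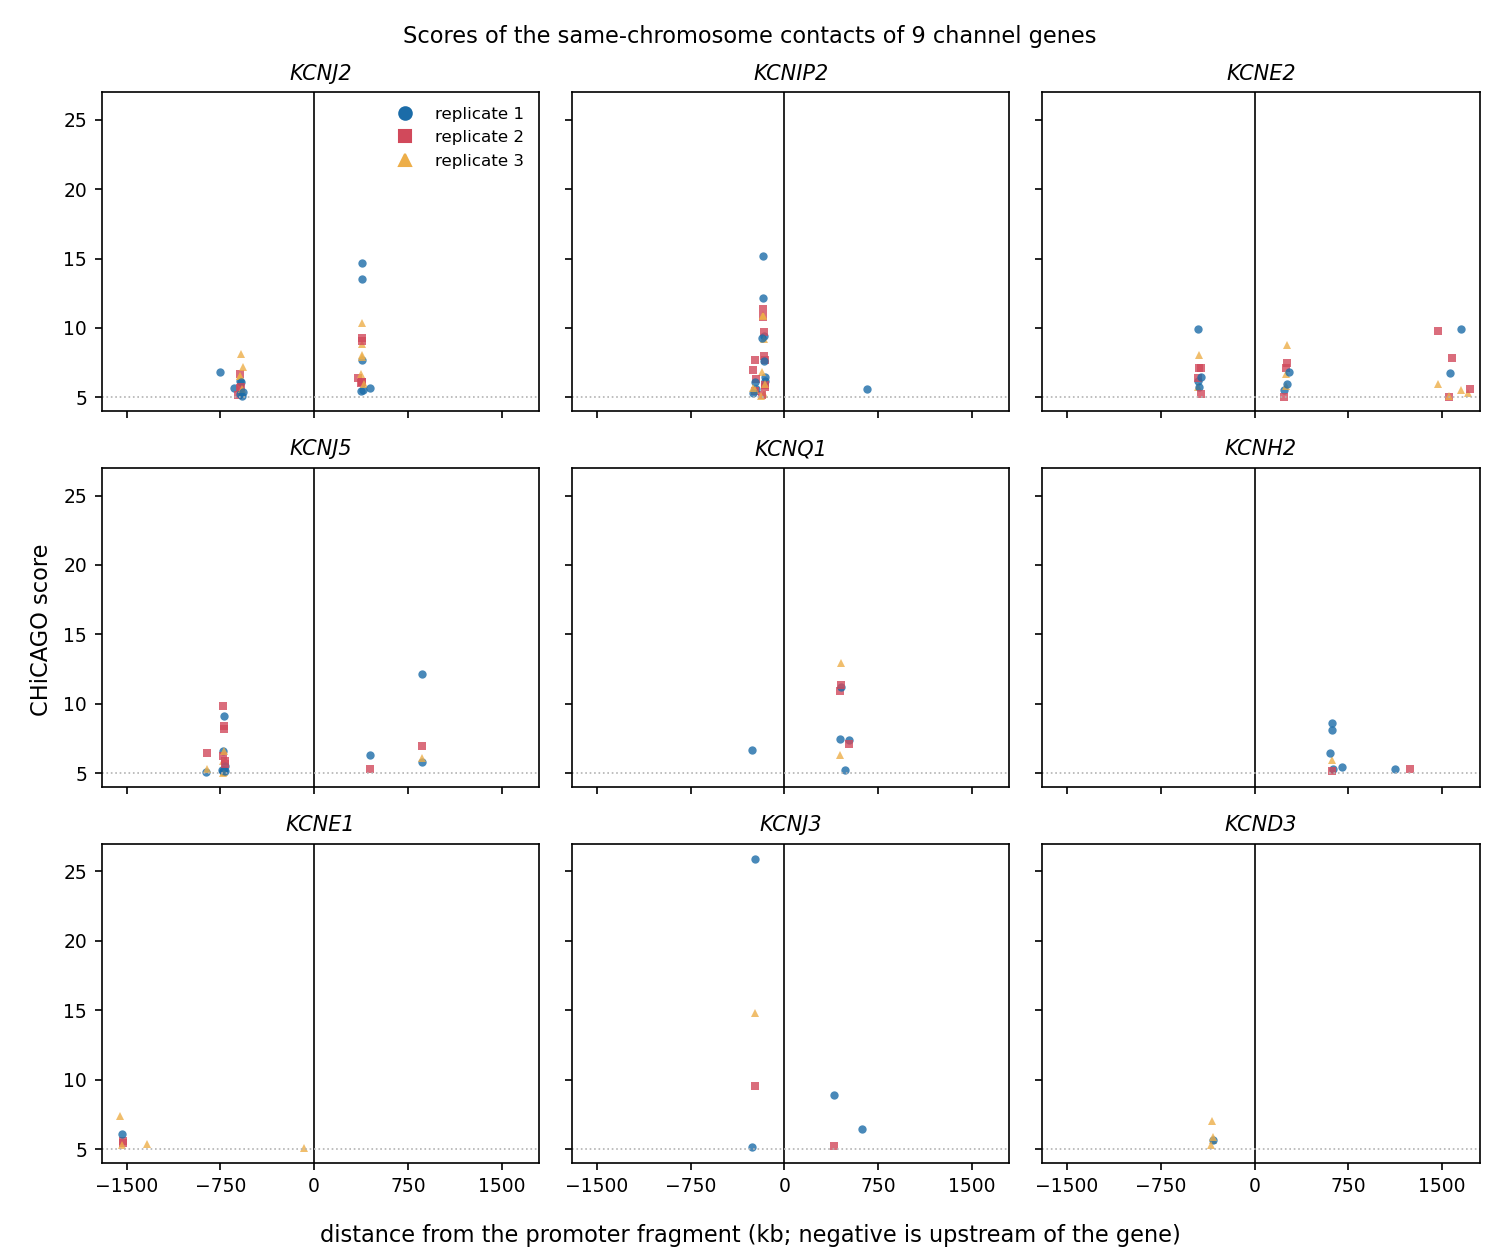
CHiCAGO score (vertical axis) against the distance in kb between the midpoints of promoter fragment and partner (horizontal axis, negative is upstream in the gene's direction) for the same-chromosome contacts of 9 potassium channel genes, with a symbol per replicate. The dotted line is the lowest listed score, 5. KCNA5 had no such contact. Points stacked at 1 position are calls of the same region in several replicates, and the highest score was that of KCNJ3 in replicate 1, at 25.91.

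KCNQ1 encodes the pore of the slow delayed rectifier. Its promoter fragment, chr11:2457869-2471607 (13739 bp), holds 3 of the 6 annotated KCNQ1 starts and a start of TRPM5, a cation channel gene of taste cells, and a contact of the fragment cannot be given to either gene alone. It had 5, 3 and 2 contacts in the 3 replicates. Its strongest partner was chr11:2914488-2925202, 455 kb downstream and past the end of the gene, a fragment with starts of SLC22A18, a membrane transporter gene, and of its antisense neighbour SLC22A18AS. Its scores were 11.21, 11.39 and 12.96 (mean 11.9 ± 0.963 SD, n = 3). The adjoining fragment, chr11:2904920-2914487, which holds a start of the cell-cycle inhibitor gene CDKN1C as well as one of SLC22A18AS, scored 7.50, 10.94 and 6.28. Both fragments are promoter fragments themselves. A further promoter fragment of the same neighbourhood, with a start of SNORA54 inside NAP1L4, was called in replicates 1 and 2 (7.42 and 7.11), and the one with PHLDA2 and SLC22A18 starts in replicate 1 only (5.25). So 4 of the 5 partners of KCNQ1 were promoter fragments, all downstream, within a stretch 445 to 520 kb away, and CDKN1C, SLC22A18, PHLDA2 and KCNQ1 are known as genes of an imprinted region of chromosome 11. The 2 partners in all 3 replicates were shared. The adjoining promoter fragment with a TRPM5 start contacted the CDKN1C partner in all 3 replicates at a mean of 14.3, and that of KCNQ1OT1 at 8.99. The mean of the KCNQ1 fragment there was 8.24. The SLC22A18 partner was called in all 3 replicates for the TRPM5 fragment (mean 7.59) and the TSSC4 fragment (mean 7.98), below the KCNQ1 fragment.

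KCNH2 encodes the pore of the rapid delayed rectifier. Its promoter fragment, chr7:150670758-150694809 (24052 bp), is the longest of the 10 and holds 2 of 8 annotated KCNH2 starts together with a start of NOS3, the endothelial nitric oxide synthase gene. The 3 replicates had 6, 3 and 1 contacts and replicate 1 held most of them. The only contact of KCNH2 in all 3 replicates was with chr7:150063037-150073438, a promoter fragment with starts of the zinc finger genes REPIN1 and ZNF775 and of REPIN1-AS1, 615 kb downstream. It scored 8.60, 5.18 and 5.94 (mean 6.57 ± 1.80 SD). The calls list the KCNH2 fragment second in this pair in each replicate, so the contact was lost when the gene had to be listed first. Of all partners of the 25 contacts in all 3 replicates, this one was shared most widely, with calls for 13 promoter fragments. It also had the most protein-coding genes starting in between, 12, not counting genes that also start in either fragment. In replicate 1 alone the fragments on either side of it were called too, at 8.10 on the far side and 6.43 on the near side. A contact with chromosome 12, in PKP2, a desmosome gene, was called in replicate 2 only, at 5.16.

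KCNE1 and KCNE2 encode small accessory subunits, the first of the KCNQ1 channel and the second able to join several potassium channels including that of KCNH2. They lie on chromosome 21 on opposite strands, with their promoter fragments 147 kb apart. The KCNE1 fragment, chr21:35882910-35897089, also holds a start of RCAN1, a calcineurin inhibitor gene, and the KCNE2 fragment, chr21:35734485-35751224, also holds starts of SMIM11 and of 2 unnamed genes. KCNE1 had 1, 2 and 4 contacts and KCNE2 had 9, 11 and 9. KCNE1 had fewer in every replicate, and the replicates of the 2 genes did not overlap.

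For KCNE2, 2 contacts were called in all 3 replicates. The fragment chr21:35997422-35999783, 256 kb downstream and in no annotated gene, scored 5.98, 7.51 and 8.78 (mean 7.42 ± 1.40 SD). The fragment chr21:35295507-35300281, 445 kb upstream with a start of the long non-coding RNA LINC00649, scored 5.73, 7.15 and 8.05 (mean 6.98 ± 1.17 SD). Neither was called for KCNE1. The downstream partner was shared with 2 promoter fragments that lie between KCNE2 and KCNE1: the one with starts of SMIM34 contacted it in all 3 replicates with a mean score of 13.4, and the one with a start of C21orf140 with a mean score of 5.83. The mean score of KCNE2 at this partner lay between those of its neighbours.

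For KCNE1 no contact was called in all 3 replicates, and 1 was called in 2. That partner, chr21:37425641-37426622 in SETD4, a methyltransferase gene, scored 6.09 in replicate 1 and 5.31 in replicate 3. The highest score was 7.39, in replicate 3 only, for the promoter fragment with a start of CBR1, a carbonyl reductase gene. Of its 6 contacts 5 were 1336 to 1551 kb upstream. KCNE2 had 9 contacts at 1468 to 1719 kb, in the same part of the chromosome around RUNX1, SETD4 and CBR1-AS1, none of them in all 3 replicates and 1 in 2. The 2 genes had 1 partner in common, chr21:35973363-35975017 in RCAN1, called for KCNE1 in replicate 3 (5.08) and for KCNE2 in replicates 1 and 2 (5.51 and 5.03), so in no replicate for both. This was the only partner that any 2 of the 10 genes shared.

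KCNA5 encodes the pore of the ultrarapid delayed rectifier of the atria. Its promoter fragment, chr12:5145024-5156969, holds the only annotated start. A single contact was called, in replicate 2, with a fragment on chromosome 8 in MSRA, a methionine sulfoxide reductase gene, at 7.81. In the other 2 replicates the fragment had 0 contacts, and it had none with its own chromosome in any replicate.

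KCNJ2 encodes the main pore of the inward rectifier that holds the resting potential of ventricular cells. Its contacts made up 2 runs of neighbouring fragments, a run being fragments less than 10 kb apart. The downstream run, chr17:68539180-68562387, lies 375 to 395 kb from the promoter with no annotated gene in it. No protein-coding gene other than KCNJ2 itself starts on the way. Of its 11 HindIII fragments 7 were called, 4 of them in all 3 replicates. The fragment chr17:68549558-68549864 scored 13.51, 9.27 and 10.37 (mean 11.1 ± 2.20 SD), and its near neighbour chr17:68549891-68550841 scored 14.68, 9.08 and 7.88 (mean 10.5 ± 3.63 SD). The scores of the 2 fragments overlapped. Replicate 1 was the highest at both. The other 2 fragments in all 3 replicates were lower, at 7.66, 6.09 and 8.87 for chr17:68545217-68549542 and at 5.48, 6.02 and 6.69 for chr17:68539180-68540256. Each of the 7 fragments was called for KCNJ2 and for no other promoter fragment.

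The upstream run of KCNJ2, chr17:67569080-67596891, lies 568 to 595 kb away in and beside the long non-coding RNA gene LINC01483, with KCNJ16, another inward rectifier gene, starting in between. It had 5, 3 and 5 calls in the 3 replicates, over 8 of its 9 fragments. Of these, 2 were called in all 3 replicates: chr17:67570544-67572238 at 6.19, 6.71 and 6.56, and chr17:67575848-67580530 at 6.12, 5.74 and 8.11. Their means, 6.49 ± 0.268 and 6.66 ± 1.27, lay below those of the strongest downstream fragments. Of the 20 contacts of KCNJ2, 15 belonged to the 2 runs, and of the other 5, each called in a single replicate, only that with the MAP2K6 promoter fragment (6.83 in replicate 1) was with a promoter.

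KCNJ3 and KCNJ5 encode the pair of subunits that form the acetylcholine-activated potassium channel of the atria and the pacemaker. KCNJ3 had 4, 2 and 1 contacts. Its promoter fragment, chr2:155538447-155554993, holds 1 of 4 annotated KCNJ3 starts and that of an unnamed gene. The partner chr2:155308983-155314644, 235 kb upstream, scored 25.91, 9.57 and 14.81, with the highest mean of any contact of the 10 genes (16.8 ± 8.34 SD) and the widest spread. On the merged replicates it scored 14.96, below the strongest partners of KCNIP2 (17.56) and KCNQ1 (15.51). It is a promoter fragment with the start of an unnamed non-coding gene, inside GALNT13, a glycosyltransferase gene, and no other protein-coding gene starts in between. Without replicate 1 the mean of KCNJ3 was 12.2, level with the 12.2 of KCNQ1 over the same 2 replicates. A partner 399 kb downstream, with the start of the small nuclear RNA gene RNU6-1001P, was called in replicates 1 and 2 (8.86 and 5.19).

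KCNJ5 had 12, 9 and 6 contacts in the 3 replicates. The farthest contact in all 3 also had the highest mean score of these. Its partner chr11:129618235-129620231, 861 kb downstream and in no annotated gene, scored 12.14, 6.99 and 6.13 (mean 8.42 ± 3.25 SD). The promoter fragment of BARX2, a homeobox gene that starts in between, was called with the same partner in all 3 replicates at a mean of 15.5, with the distance at 372 kb. Most of the contacts of KCNJ5 lay on the other side, in a run at chr11:128020813-128046269, 712 to 738 kb upstream in the long non-coding RNA gene LINC02725 and past KCNJ1, FLI1 and ETS1. Of its 14 HindIII fragments 8 were called, 4 of them in all 3 replicates. The strongest of the run, chr11:128040274-128041897, scored 9.09, 8.4 and 6.62 (mean 8.04 ± 1.27 SD), and the printed fragment chr11:128027799-128028105 scored 5.14, 9.84 and 5.86. The scores of the strongest downstream and upstream partners overlapped, and the downstream one was higher only in replicate 1. On the merged replicates the downstream one scored 11.34, below the 13.47 of the upstream one. The number of called fragments in the run was 8, 6 and 4 in the 3 replicates, and every fragment of it was also called for at least 1 other promoter fragment.

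KCND3 encodes a pore of the transient outward current. Its promoter fragment, chr1:112529962-112535367, holds 5 of 7 annotated KCND3 starts and one of LINC01750. The 3 replicates had 1, 0 and 5 contacts, and no contact was called in all 3. The same-chromosome contacts all lay 334 to 353 kb upstream in and around the long non-coding RNA gene LINC02884. The fragment chr1:112867698-112868707 was called in replicates 1 and 3 at 5.64 and 5.84, and chr1:112873383-112874225 had the highest score, 6.99, in replicate 3 only. A contact with chromosome 7 was called in replicate 3 at 5.21.

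KCNIP2 encodes the accessory subunit that binds the transient outward channel and raises its current in the ventricle. It had 11, 12 and 10 contacts, and the union held 14, with 8 that all 3 replicates called, 3 that 2 replicates called and 3 from a single replicate. Of the 14, 13 lay 153 to 252 kb upstream and 1 lay 661 kb downstream, in replicate 1 only. The promoter fragment, chr10:103595200-103610651, holds 5 of the 9 annotated KCNIP2 starts and those of no other gene. Most contacts belonged to 1 run, chr10:103755891-103797821, within ARMH3, which encodes a protein with an armadillo-like domain. Of its 14 HindIII fragments 9 were called, 7, 8 and 7 of them in the 3 replicates, and 6 in all 3.

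Within that run the scores peaked in the middle. The fragment chr10:103773411-103774184 scored 15.16, 10.81 and 10.90 (mean 12.3 ± 2.49 SD) and its neighbour chr10:103774185-103774772 scored 12.15, 11.38 and 10.87 (mean 11.5 ± 0.644 SD). The scores of the 2 fragments overlapped. The printed fragment chr10:103761642-103761930, towards the near end, scored 6.46, 7.72 and 5.98 and holds an annotated start of ARMH3. Beyond the run and past HPS6, a gene of lysosome-related organelles, a second run of 3 fragments held 1 contact in all 3 replicates (chr10:103833354-103840917, at 6.11, 7.71 and 5.55).

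**Figure D3:**
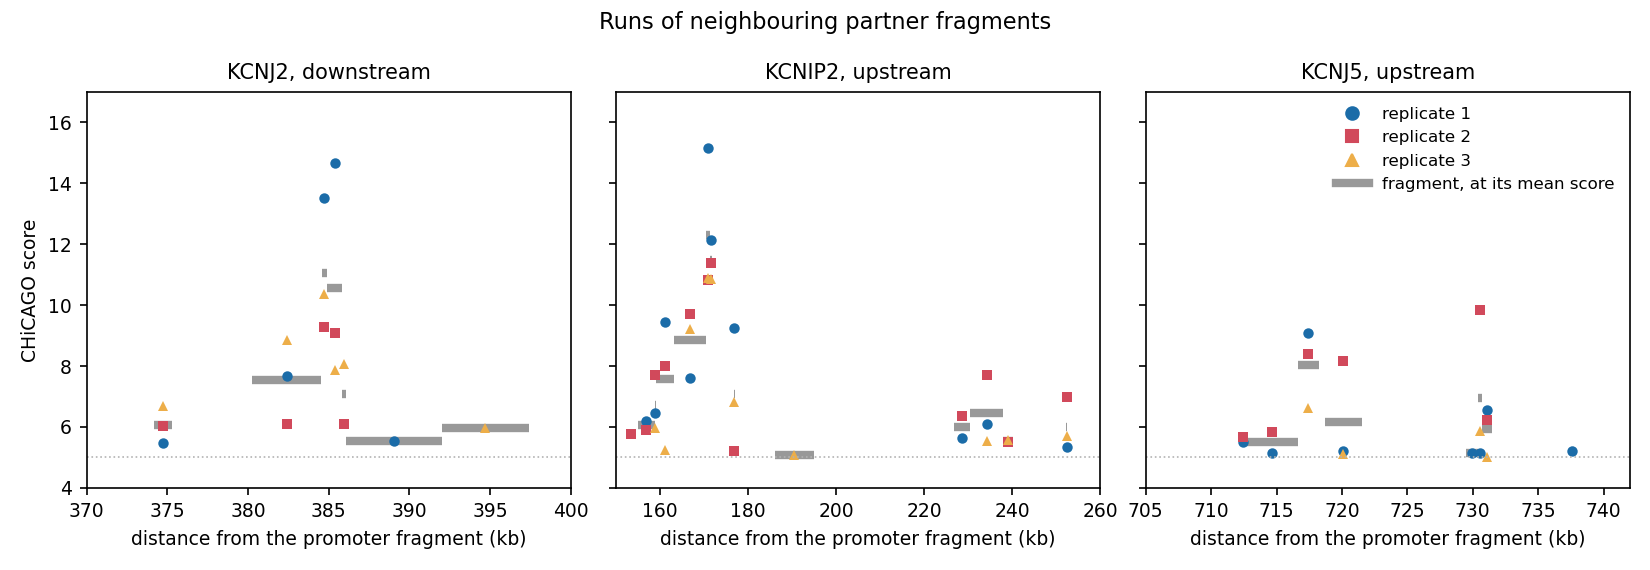
CHiCAGO scores in the 3 replicates (symbols) of the partner fragments in the downstream run of KCNJ2, the upstream contacts of KCNIP2 and the upstream run of KCNJ5, against the distance in kb from the promoter fragment. Grey bars span each fragment at its mean score over the replicates that called it. The KCNJ2 and KCNIP2 runs have their highest means near 385 and 171 kb, while the means of the KCNJ5 run stay at or below 8.04.

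Contacts thus came as runs of neighbouring fragments for part of the genes. Joined over gaps of up to 10 kb, the 95 contacts made 46 regions, 17 of them with more than 1 fragment, the largest with 9. A call in each of the 3 replicates, at any fragment of the region, was found in 15 regions. Regions were not formed for the other promoter fragments, so the runs cannot be called particular to these genes. When a contact counted as recurring if a partner within 5 kb was called, 51.6% of the contacts were in all 3 replicates, where 26.3% were called at the identical fragment. Over all promoter fragments the corresponding shares were 47.8% and 24.4%, with a contact between promoter fragments counted from each of them. Of the 95 partners, 35 (36.8%) were called for no other promoter fragment, against 34.5% over all promoter fragments. Of the 25 contacts in all 3 replicates, 11 had a partner over a protein-coding gene, 5 over long non-coding RNA genes only and 9 over no annotated gene. In 7 of the 25 no protein-coding gene started between the fragments, not counting genes that also start in either fragment. The same shares over all contacts were not computed, and 6 of the 11 partners belonged to the KCNIP2 run in ARMH3.

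Recurrence went with the score. Of the calls of the channel genes that scored 5 to below 6, 23.6% (17 of 72) were contacts called in all 3 replicates, against 19.4% of all calls in that range. The share was 47.2% (25 of 53) at 6 to below 8, 73.9% (17 of 23) at 8 to below 10, and 100% (16 of 16) at 10 or more, beside 40.6%, 62.5% and 82% of all calls. These are shares of calls, in which a recurring contact counts once in each replicate.

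**Figure D4:**
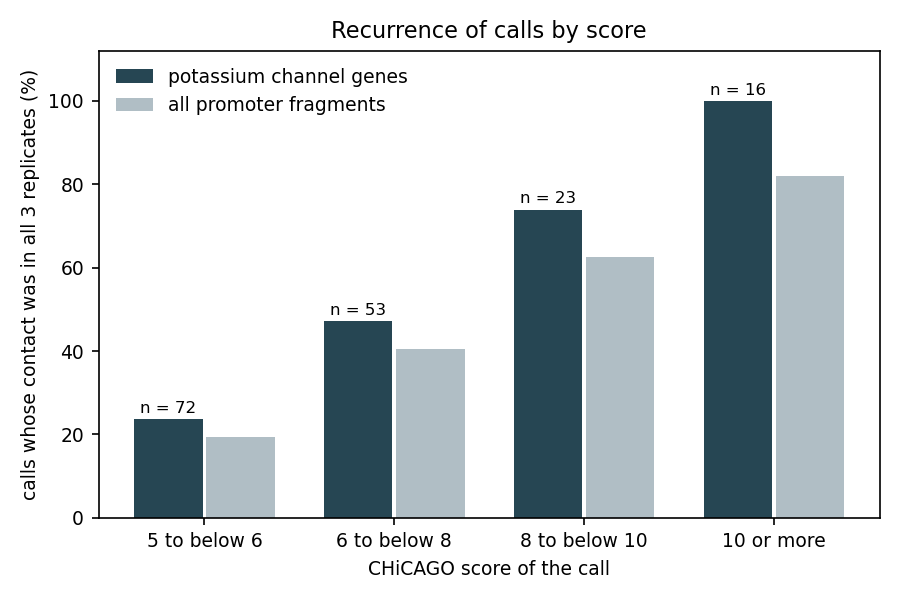
Share of calls (%) whose contact was called in all 3 replicates, by the CHiCAGO score of the call, for the 10 potassium channel genes (dark, number of calls above the bar) and for all promoter fragments (grey). The share rises from 23.6% at the lowest scores to 100% at scores of 10 or more for the channel genes.

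A list of 28 other potassium channel genes and accessory subunits was set beside the 10. Of these, 23 had a promoter fragment in the calls, KCNA7, KCNE4, KCNE5, ABCC8 and AKAP9 being the others. A contact in all 3 replicates was found for 16 of their 28 promoter fragments (57.1%), against 51.9% of all promoter fragments. They had 286 contacts, 90 of them in all 3 replicates (31.5%, against 24% of all contacts), and the number per gene ran from 1 to 57 with a median of 9. The highest number was that of KCNMA1, a large-conductance calcium-activated channel gene, with 57 contacts over 3 promoter fragments. Of these, 32 were called in all 3 replicates, all of them from the same promoter fragment. Without KCNMA1 the share in all 3 replicates was 25.3% (58 of 229). Among the contacts of the whole list in all 3 replicates, the highest mean score was that of KCNAB2, a channel beta subunit gene, at 32.2. KCND2, which encodes another pore of the transient outward current, had 9, 9 and 10 contacts with 5 in all 3 replicates, where its relative KCND3 had 1, 0 and 5 and none in all 3.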

How the data were processed

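The 3 biological replicates of hESC-CMs and their merged set were used as the authors deposited them. Each row holds a promoter fragment, a partner fragment and a score, to 2 decimals. The authors mapped the reads with HiCUP and called contacts with CHiCAGO at default parameters, and versions are not given in the sources used here. Read counts behind a score were not used here, and the deposited calls start at a score of 5. Coordinates are GRCh37 per the labels, and all 110 fragments of the channel genes' contacts matched HindIII fragments of that genome.

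Genes came from GENCODE release 44 lifted to GRCh37. Contacts were unordered pairs, those in both orders being counted once, and the replicates' union was analysed unless stated. Distances are between midpoints. Intervals are 95% Wilson intervals, which cover counting error only. They treat the contacts as independent, although the 95 contacts of the channel genes fell into 46 regions. SDs are between replicates, and the p-value comes from an exact sign-flip test over the 3 replicates, which measures only the spread between these samples. The members, the list of other channel genes and the motifs were chosen with earlier results of these data known. Named were all members, the strongest and farthest partners, partners on other chromosomes, genes starting in partners called in all replicates or in the members' fragments, and genes holding most of a member's contacts. The gap of 10 kb that joins fragments into runs, and the genes named as neighbours or lying in between, were chosen after the values were seen. Alternatives were higher score minimums, each replicate left out, the merged set, the first listed fragment only, at most 1 Mb, protein-coding starts only and matching within 5 kb. A few partner sequences and contacts are not reported here. Only the steps that tie genes to fragments, collect their contacts and give the share in all 3 replicates were tested on simulated data. Computation used scipy 1.17.1, numpy 2.4.6 and matplotlib 3.10.9 under Python 3.11.15.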

Additional observations from a re-analysis of the deposited data

How the results depend on the processing

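With a score of at least 7 in place of 5, the channel genes had 34 contacts, 20.6% of them in all 3 replicates, a median distance of 445 kb, a median score of 8.85, 7 contacts with promoter fragments, a median of 2.5 contacts per gene and a median strongest score of 11.1. With at least 10, the corresponding values were 8, 37.5%, 385 kb, 11.9, 3, 0.5 and 12.3. On the merged replicates the median distance was 380 kb, the median score 6.87, the share over a gene starting in the promoter fragment 4.17% and the median strongest score 12.95. Contacts of at most 1 Mb had a share in all 3 replicates of 32.9% and a median distance of 444 kb. The median distance was 502 kb when the channel gene had to be the first listed fragment, and contacts in all 3 replicates had 385 kb and a median score of 7.34. Matching within 5 kb gave 51.6% in all replicates. The share of calls in all replicates relative to other contacts, 2.73 percentage points, changed sign with a score of at least 7 (-7.56), without replicate 2 (-0.96) and within 1 Mb (-0.18), and the cause was not tested.

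With 1 replicate left out, the contacts numbered 72 to 82, the share in all remaining replicates was 35.4% to 43.8%, which is over 2 replicates and not 3, the median distance 445 to 544 kb, the median score 6.09 to 6.31, the contacts with promoter fragments 7 to 11, the share over a gene starting in the promoter fragment 0 to 1.39%, the contacts per gene 5.5 to 6.5, the median strongest score 7.998 to 9.135 and the difference from other contacts -0.96 to 7.03. The alternatives of these results that are not given here moved counts by at most 1.5 times and other values by at most 1 SD between replicates, and kept the sign of the difference from other contacts. With the channel gene as the first listed fragment, 6 genes in place of 7 had a contact in all 3 replicates, KCNH2 being lost. Without KCNMA1 the share of the other channel genes' contacts in all 3 replicates went from 31.5% to 25.3%. Both of these alternatives were chosen after seeing the data. No paired analysis was possible because there was a single group, so that no groups share replicate numbers. The depth behind each score was not analysed here, so the scores set no limit on contacts below 5.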

Other observations

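The calls on the merged replicates held 72 contacts of the 10 channel genes, 15 of which no single replicate had. Of the 95 contacts of the union 57 (60%) were also called on the merged replicates, against 56.7% of all contacts. The 25 contacts called in the 3 replicates were among them, as were 18 of the 19 called in 2 and 14 of the 51 called in 1. KCNJ5 and KCND3 each had 6 of the contacts found in the merged set alone. For KCND3 this brought the number to 10, with the reach upstream in the region of LINC02884 extended to 377 kb, and with 2 contacts downstream, at 205 kb inside KCND3 (merged score 5.23) and at 223 kb (5.20). For KCNJ5 it added 3 contacts at 58.0 to 73.8 kb downstream, at merged scores of 5.17, 6.99 and 5.03, nearer than any contact of the gene in a single replicate. KCNH2 gained a contact 21.4 kb away in NOS3 (5.41), and KCNE1 a contact 79.0 kb away (5.22), beside the partner it shared with KCNE2. KCNIP2 gained 1 fragment of its ARMH3 run (5.56). Merged scores are single values with no replicate error.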
